A study of Schizosaccharomyces pombe with 5 samples.

Results

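The 9 cytosolic heat shock protein genes of fission yeast described here were taken by systematic identifier from 6727 genes counted in each library. They are hsp104 (SPBC16D10.08c), hsp90, also called swo1 (SPAC926.04c), ssa1 (SPAC13G7.02c), ssa2 (SPCC1739.13), sks2 (SPBC1709.05), psi1 (SPCC830.07c), mas5 (SPBC1734.11), hsp16 (SPBC3E7.02c) and hsp9 (SPAP8A3.04c). All 9 passed the filter on low counts that left 6376 genes for testing.

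The study sought RNAs bound by Slr1p, a La-related protein of the LARP1 family, through sequencing of RNA recovered with an antibody against it. All libraries came from wild-type Schizosaccharomyces pombe cells labelled yAS99, grown in YES medium at 32 °C and treated with formaldehyde as a cross-linker. No heat shock or other stress is named in the labels. Input (n = 2) was total RNA from hot phenol extraction with no antibody, the Slr1p immunoprecipitation (n = 2) used antibody AB2756, and the control immunoprecipitation (n = 1) used non-immune rabbit IgG. The titles call the paired libraries biological replicates and the IgG library has no replicate, so nothing shows how an IgG value would vary.

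Heat shock proteins are molecular chaperones, which bind unfolded protein and help it to fold, stay soluble or be recovered from aggregates. Hsp70 proteins work in cycles of ATP hydrolysis that J-domain proteins stimulate, Hsp90 finishes the folding of kinases and other clients, and Hsp104 pulls proteins out of aggregates. Many of their genes are switched on by the heat shock factor Hsf1, which binds heat shock elements in the DNA, and in fission yeast the J-protein Mas5 is known to hold Hsf1 in check. Some chaperones are abundant in unstressed cells, while others are known for their rise in heat.

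The precipitated protein belongs to a family known in animals to bind mRNAs that start with a run of pyrimidines. The first 30 bases of each annotated transcript are therefore shown, from the RefSeq annotation of assembly ASM294v3, 5′ to 3′, with the longest run of C and T that begins at base 1, 2 or 3 in capitals. The build used for the counts is not given in the sources used here.
hsp104: aaCCatcaatctataaccgaagaatttatt
hsp90: aTCTagctctcaagttatttataacccatt
ssa1: aTCaacaattcttcaaacagcaattgtcgt
ssa2: aTCgtgtattcctattacttgcattaatat
sks2: aCaataacctacttctctcaaaaaaatcga
psi1: aCTgtcttcacacattttgtttcgtttcca
mas5: aaCCatttcctaccacttttcacattttga
hsp16: aTCgaacaaatacagatttgaattgaattc
hsp9: Tacgagtccaagttcaacagtttaatcatt

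The longest such run was 3 bases, in hsp90, and 0 of the 9 transcripts began with at least 5 pyrimidines. Of 5071 nuclear protein-coding genes in the count files, 471 did (9.29%). The annotated starts were not checked against these reads. Each of the 9 genes was annotated with 1 exon, and transcripts ran from 720 bases for hsp9 to 3005 for hsp104.

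On ASM294v3 the transcripts of hsp104 (chrII:3612265-3615269), hsp90 (chrI:3888558-3891139), ssa1 (chrI:2295580-2297964), psi1 (chrIII:2193527-2195534), hsp16 (chrII:2660139-2660992) and hsp9 (chrI:5319957-5320676) lie on the minus strand. Those of ssa2 (chrIII:2057043-2059331), sks2 (chrII:1106396-1108511) and mas5 (chrII:1081375-1083347) lie on the plus strand. The transcript of hsp9 was annotated with 207 coding bases and a 3′ UTR of 442 bases, so most of it is untranslated. That of hsp16 has 432 coding bases and a 3′ UTR of 351.

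A further set of sequences is shown because several of the members had a high ratio of input replicate 2 to replicate 1, as described below. A heat shock element is built of repeats of GAA and its complement TTC, and the forms searched were GAANNTTC and TTCNNGAA, each of which reads the same on both strands. The window of 300 bases ran from 250 before to 50 after each annotated start. Matches stood in 6 of 9 members (hsp90, ssa1, ssa2, psi1, mas5 and hsp16) and in 1003 of 5070 protein-coding promoters (19.8%). The 80 bases from -110 to -31 are given for the 5 members with a match there, from RefSeq ASM294v3, with matches in capitals.
hsp90 (chrI:3891170-3891249, minus strand): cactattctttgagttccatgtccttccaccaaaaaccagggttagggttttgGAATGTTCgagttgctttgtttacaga
ssa1 (chrI:2297995-2298074, minus strand): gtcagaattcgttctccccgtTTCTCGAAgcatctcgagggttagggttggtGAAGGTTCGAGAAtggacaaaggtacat
ssa2 (chrIII:2056933-2057012, plus strand): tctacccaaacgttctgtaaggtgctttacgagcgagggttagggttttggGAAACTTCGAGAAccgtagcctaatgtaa
psi1 (chrIII:2195565-2195644, minus strand): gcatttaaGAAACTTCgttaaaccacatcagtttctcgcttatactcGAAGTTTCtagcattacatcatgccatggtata
hsp16 (chrII:2661023-2661102, minus strand): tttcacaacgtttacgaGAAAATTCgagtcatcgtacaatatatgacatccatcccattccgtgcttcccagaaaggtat

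The Hsp70 genes ssa1 and ssa2 each held an overlapping pair of matches, which makes 3 units in a row. That 3-unit form was found in 24 of 5070 promoters (0.473%). The inward pair began at -58 in ssa1, -59 in ssa2 and -57 in hsp90, counted from the start. In mas5 the match lay farther out, at -224. The letters GGGTTAGGG, picked out after these sequences were read, lie just upstream of the element in hsp90, ssa1 and ssa2 and occur on either strand in 25 of 5070 promoters (0.493%). A match is a run of letters and says nothing of binding.

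**Figure D1:**
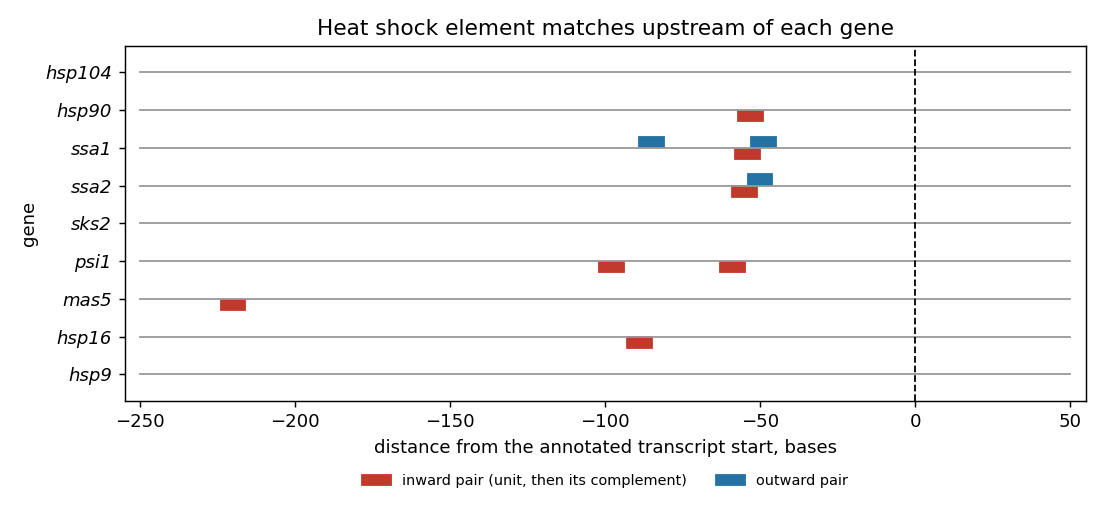
Positions of GAANNTTC (inward pair) and TTCNNGAA (outward pair) matches from 250 bases before to 50 after the annotated transcript start of each gene. The matches of hsp90, ssa1 and ssa2 begin between -57 and -59, apart from 1 more in ssa1 at -89 and the overlapping outward pairs, and hsp104, sks2 and hsp9 have none in the window.

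Gene counts totalled between 62802923 and 65859940 in each input and Slr1p library and 12882920 in the IgG library. The IgG library stood apart from the rest, with 4.73% of its counts on 4 mitochondrial genes against at most 0.00154% in the others. The 9 members together took 1.02% and 1.34% of counts in input replicates 1 and 2, 1.30% and 1.33% in the Slr1p libraries. Their share in IgG was higher than in any of these. Values below are CPM (counts scaled to a common library size), adjusted between libraries by the trimmed mean of M-values (TMM).

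Levels in input, compared between genes per kilobase of annotated transcript, spanned from 2002 ± 11.6 CPM per kilobase (SD, n = 2) for sks2 to 32.0 ± 8.11 for hsp104. The ribosome-associated Hsp70 Sks2 and the cytosolic Hsp70 Ssa2, at 1743 ± 479 CPM per kilobase, had the highest levels, and their libraries overlapped. Next came hsp90 at 950.0 ± 110.2 CPM per kilobase, the J-protein gene mas5 at 394 ± 25.2, and hsp9, related to budding yeast Hsp12, at 149 ± 5.62. These 3 did not overlap with each other or with their neighbours.

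The lower end of the order held psi1, a J-protein gene like budding yeast SIS1, at 57.5 ± 15.7 CPM per kilobase, and the small heat shock protein gene hsp16 at 53.1 ± 4.31. They were followed by ssa1 at 42.5 ± 7.54 and hsp104. The libraries of psi1 overlapped with those of hsp16 and of ssa1, and those of ssa1 with those of hsp104, so the places of these neighbours were not separated by 2 libraries. With coding length in place of transcript length hsp9 stood at 518 CPM per kilobase, hsp16 at 105 and psi1 at 101, which exchanged the places of the last 2.

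The Hsp70 genes ssa1 and ssa2 are related in sequence, with 82.6% of aligned coding positions identical and a longest identical run of 56 bases. Of the 50-base words in the ssa1 transcript 0.300% occur elsewhere in the genome, and of those in ssa2 0.313%. For the other 7 members the share was 0%. How the authors treated reads that map more than once is not given. Since ssa2 had 36.3 to 113 times the counts of ssa1, shared reads would weigh more on ssa1 and on the ratio of the 2 genes, and their part in these values was not tested. The deposited counts hold alg12, which overlaps the mas5 transcript by 32 bases on the opposite strand, and ppe1, which overlaps ssa2 by 27 bases on the same strand. They also hold 2 noncoding RNAs of low count. SPNCRNA.811 overlaps ssa1 by 145 bases on the opposite strand (14 to 21 counts in each library). SPNCRNA.1071 overlaps hsp9 by 64 bases on the same strand (16 to 63 counts). The kit marks strand, but the setting used in counting is not given.

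The input replicates differed for several members. The CPM of ssa2 was 3214 in input replicate 1 and 4766 in replicate 2, a ratio of 1.48. That of psi1 was 93.2 and 138 CPM, also a ratio of 1.48. That of hsp104 was 79.0 and 113 CPM, a ratio of 1.44. Over 4593 genes with at least 10 CPM in input, the ratio of replicate 2 to replicate 1 had a median of 1.02 and a 95th percentile of 1.32, so these 3 genes lay above it.

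The same ratio was 1.29 for ssa1 and 1.18 for hsp90. It was 1.05 for hsp9, 1.01 for sks2, 0.913 for mas5 and 0.892 for hsp16. Of the genes above the 95th percentile, ssa2 carries heat shock element matches near -58 and psi1 at -102 and -63, while hsp104 has none. Matches of ssa1 and hsp90 also lie near -58, but their ratios were below that percentile. Whether the matches bear on the ratios was not tested. The other 2 members with a match, hsp16 and mas5, were lower in replicate 2. Between the Slr1p replicates the ratio was highest for hsp104 and hsp9, at 1.28 each. The 95th percentile of that ratio was 1.17 over the same genes. The values of ssa1 (1.27), psi1 (1.20) and ssa2 (1.18) were also above it, and those of the remaining members were not. The standard errors below do not follow this spread gene by gene, because the fit estimates it largely over all genes. Against input the SE was 0.22 for sks2 and 0.16 for both psi1 and hsp104.

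**Figure D2:**
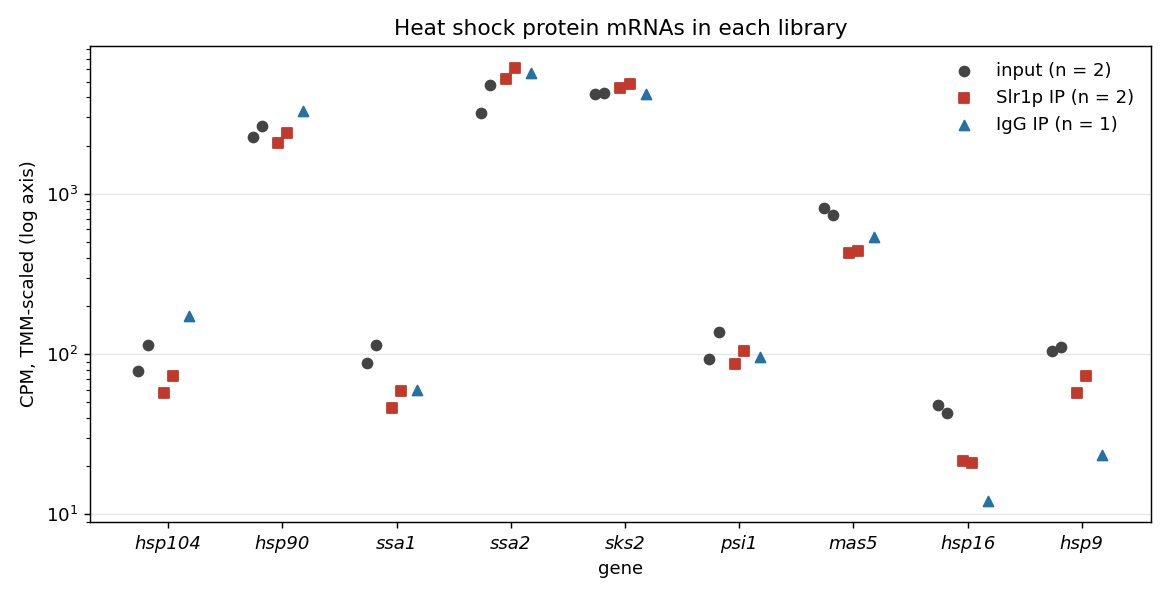
TMM-scaled CPM (log axis) of each gene in every library, with circles for input, squares for the Slr1p immunoprecipitation and triangles for IgG, replicate 1 on the left of each pair. Input and Slr1p points do not overlap for hsp104, ssa1, ssa2, sks2, mas5, hsp16 and hsp9, and IgG is the highest point for hsp104 (172 CPM) and hsp90 and the lowest for sks2, hsp16 and hsp9.

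The comparison of the Slr1p immunoprecipitation with input asks whether an mRNA was enriched over its abundance in the cell. Of the 9 members 5 were lower (hsp16, ssa1, mas5, hsp9 and hsp104) and 0 were higher, by edgeR's quasi-likelihood test with adjustment over all genes. Over all 6376 genes, 34.2% were called lower and 35% higher. The median log2 fold change was -0.57 over the members and 0.035 over all genes tested.

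The small heat shock protein gene hsp16, whose product binds unfolded protein without ATP, stood at 48.0 and 42.8 CPM in input and at 21.4 and 21.0 CPM with Slr1p. Both Slr1p libraries lay below both input libraries. Its log2 fold change was -1.10 (SE 0.13, edgeR adjusted p = 1.27e-06). For hsp9, the shortest of the 9 transcripts, the values were 104 and 110.1 CPM in input and 57.2 and 73.2 CPM with Slr1p. The groups did not overlap, and the difference was -0.72 on the log2 scale (SE 0.13, edgeR adjusted p = 1.62e-04).

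The Hsp70 genes did not move as one. The CPM of ssa1 was 88.6 and 114 in input and 46.5 and 59.1 with Slr1p, without overlap. The difference was -0.94 on the log2 scale (SE 0.15, edgeR adjusted p = 3.33e-05). That of ssa2 was 3214 and 4766 in input and 5228 and 6146 with Slr1p, higher in both Slr1p libraries. Its log2 fold change of 0.51 (SE 0.25) was not called (edgeR adjusted p = 0.0789).

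Whether ssa2 was called depended on the setting. It was called in 5 of 11 alternatives, among them library totals alone (0.49, adjusted p = 0.00104), DESeq2 (0.49, adjusted p = 0.00850) and the fit without input replicate 2 (0.82, adjusted p = 0.0253). Without input replicate 1 it was 0.25. The CPM of sks2 was 4219 and 4254 in input and 4573 and 4865 with Slr1p. The difference of 0.16 (log2, SE 0.22) was not called (edgeR adjusted p = 0.539). With a trend on length and GC content removed it was 0.37 and called (adjusted p = 0.0297).

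The ratio of ssa2 to ssa1 counts needs no scaling between libraries. It was 36.3 and 41.8 in input, 113 and 104 with Slr1p, and 94.7 in IgG. All 3 immunoprecipitated libraries lay above both input libraries, and the IgG value was close to those of the Slr1p libraries. With 2 libraries against 2 no exact test of this ratio can pass 0.05. Per kilobase, ssa1 made up 1.08% and 1.16% of the 3 Hsp70 members in input, 0.436% and 0.495% with Slr1p and 0.562% in IgG.

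The J-protein genes differed too. The CPM of mas5, related to budding yeast YDJ1, was 812 and 742 in input and 427 and 442 with Slr1p, well apart. The difference was -0.84 on the log2 scale (SE 0.15, edgeR adjusted p = 1.04e-04). For psi1 the values were 93.2 and 138 CPM in input and 86.9 and 104 CPM with Slr1p, which overlap. The difference of -0.27 (log2, SE 0.16) was not called (edgeR adjusted p = 0.141). Without input replicate 1 it was -0.53 and called, and without input replicate 2 it was 0.036.

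The disaggregase gene hsp104 stood at 79.0 and 113 CPM in input and at 57.0 and 73.1 CPM with Slr1p. The groups did not overlap, though input replicate 1 and Slr1p replicate 2 lay close together. The log2 fold change was -0.57 (SE 0.16, edgeR adjusted p = 0.00565). Leaving out Slr1p replicate 1 ended the call, at -0.42 (edgeR adjusted p = 0.128). Without input replicate 2 the value was -0.28, and without input replicate 1 it was -0.81. Without Slr1p replicate 2 it was -0.76. For hsp90 the values overlapped, at 2252 and 2654 CPM in input and 2085 and 2412 CPM with Slr1p, and the difference of -0.13 (log2, SE 0.20) was not called (edgeR adjusted p = 0.597).

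**Figure D3:**
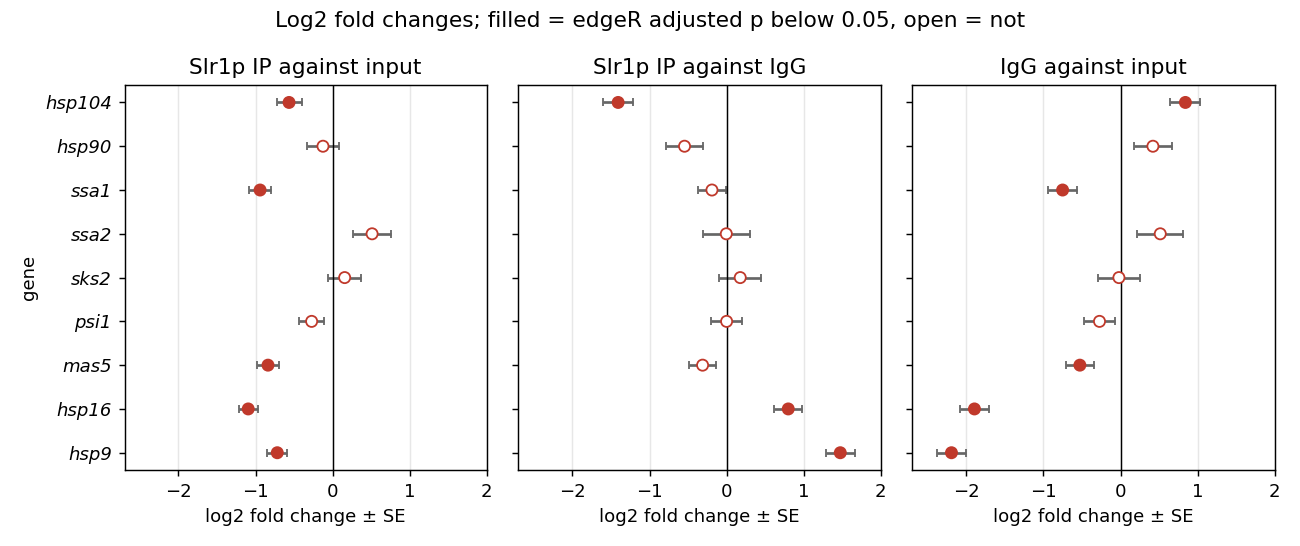
Log2 fold changes ± SE of the 9 genes in the 3 comparisons, filled where the edgeR adjusted p is below 0.05. Against input hsp16 is lowest at -1.10 with Slr1p, and against IgG the values run from -1.41 for hsp104 to 1.47 for hsp9; the comparisons share libraries.

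The comparison with IgG asks whether an mRNA exceeded the background of a non-immune precipitation, and rests on a single control library. Of the 9 members 2 were higher with Slr1p (hsp9 and hsp16) and 1 was lower (hsp104) by edgeR's test. Over all genes 34% were called higher and 32.3% lower. The median was -0.0038 over the members and 0.072 over all genes.

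The mRNA of hsp9 was at 57.2 and 73.2 CPM with Slr1p and at 23.5 CPM in IgG, which rests on 323 counts (exact 95% Poisson interval 21.0 to 26.2 CPM, counting error only). Its log2 fold change was 1.47 (SE 0.19, edgeR adjusted p = 5.13e-06). That of hsp16 was at 21.4 and 21.0 CPM with Slr1p and at 12.2 CPM in IgG, from 168 counts (10.4 to 14.2 CPM). This was 0.80 on the log2 scale (SE 0.18, edgeR adjusted p = 0.00112).

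The mRNA of hsp104 was at 57.0 and 73.1 CPM with Slr1p and at 172 CPM in IgG, the highest of the 5 libraries. Its log2 fold change was -1.41 (SE 0.19, edgeR adjusted p = 1.21e-05). For hsp90 the IgG value of 3282 CPM was above all 4 other libraries, and the log2 fold change of -0.55 (SE 0.24) was not called (edgeR adjusted p = 0.0604). It was called in 5 of 9 alternatives, and was 0.16 with a trend on length and GC content removed. Those called included the fits without an input replicate (-0.57 and -0.55). Input enters this comparison only through the scaling and the estimate of spread.

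The other 5 members were not called against IgG. The values were -0.31 for mas5 (539 CPM in IgG), -0.19 for ssa1 (60.2 CPM), -0.0038 for ssa2 (5702 CPM), 2.2e-04 for psi1 (95.6 CPM) and 0.18 for sks2 (4175 CPM), with edgeR adjusted p from 0.134 to 0.999. Alternatives moved 4 of these calls. The gene mas5 was called lower in 5 of 9, with values from -0.46 to -0.31, among them the fits without an input replicate. The gene ssa1 was -0.21 without input replicate 1, close to its value from all libraries. It was called higher with length, GC and abundance trends removed (0.66, adjusted p = 0.00985). When length and GC content alone made the trend, ssa2 was called higher at 0.59 (adjusted p = 0.0371) and sks2 at 0.65 (adjusted p = 0.00678). The IgG point lay between the input and Slr1p values for mas5, inside the Slr1p range for ssa2 and psi1, below all 4 other libraries for sks2, and just above the upper Slr1p value for ssa1.

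The IgG library was also set against input, with which the other comparisons share libraries. There 4 of 9 members were lower (hsp9, hsp16, ssa1 and mas5) and 1 higher (hsp104), against 36.5% and 34.1% of all genes. The values were -2.19 (SE 0.19) for hsp9, -1.90 (SE 0.18) for hsp16, -0.75 (SE 0.19) for ssa1, -0.53 (SE 0.18) for mas5 and 0.84 (SE 0.19) for hsp104. In fits that removed a trend on length and GC content, without and with abundance, hsp104 was not called in this comparison (0.10 and 0.050). In the same fits hsp9 was -1.51 and -1.50, hsp16 -1.22 and -1.27 and ssa1 -1.14 and -1.41, all called. The call of mas5 was lost in 4 of 9 alternatives. It was -0.034 with length, GC and abundance trends removed (adjusted p = 0.812), -0.41 with library totals alone (adjusted p = 0.0520) and -0.52 without either Slr1p replicate (adjusted p = 0.120 and 0.121). The other 4 members were not called, at 0.42 for hsp90, 0.52 for ssa2, -0.021 for sks2 and -0.27 for psi1. Of these hsp90 was called higher in 3 of 9 alternatives, up to 0.57, and ssa2 in 4 of 9. The value of ssa2 was 0.62 with library totals alone (adjusted p = 5.0e-04), 0.83 without input replicate 2 (adjusted p = 0.0455) and 0.27 without input replicate 1. That of psi1 was -0.51 and called without input replicate 1, and 0.036 without input replicate 2. With library totals alone 3 members were higher and 3 lower. Those 4 lower genes were also lower with Slr1p than in input. For hsp104 the Slr1p and IgG values lay on opposite sides of input.

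Transcript length moved with the comparison with IgG over all genes. Among protein-coding genes longer than 500 and up to 1000 bases, the class of hsp9 (720 bases) and hsp16 (854 bases), the median log2 fold change was 1.02. Among those over 3000 bases, the class of hsp104, it was -1.30, and between 2000 and 2500 bases, the class of ssa1, ssa2, sks2 and psi1, it was -0.40. For Slr1p against input the medians of the same classes were 0.19, 0.060 and -0.20. For IgG against input they were -0.84, 1.34 and 0.16. The 3 members called against IgG are the shortest pair and the longest of the 9.

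With a trend on length and GC content removed in each library, hsp16 was 0.11 against IgG and not called (adjusted p = 0.602); with abundance added it was 0.14 (adjusted p = 0.525). On the same scale hsp9 was 0.75 (adjusted p = 0.00196) and hsp104 was -0.50 (adjusted p = 0.0307). Once the trend also took in abundance, hsp9 was 0.65 (adjusted p = 0.00924) and hsp104 was -0.45 and not called (adjusted p = 0.0680). Against input the 5 members called lower were called in both of these fits, with hsp16 at -1.10 and -1.14, ssa1 at -0.71 and -0.75 and mas5 at -0.54 and -0.50.

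**Figure D4:**
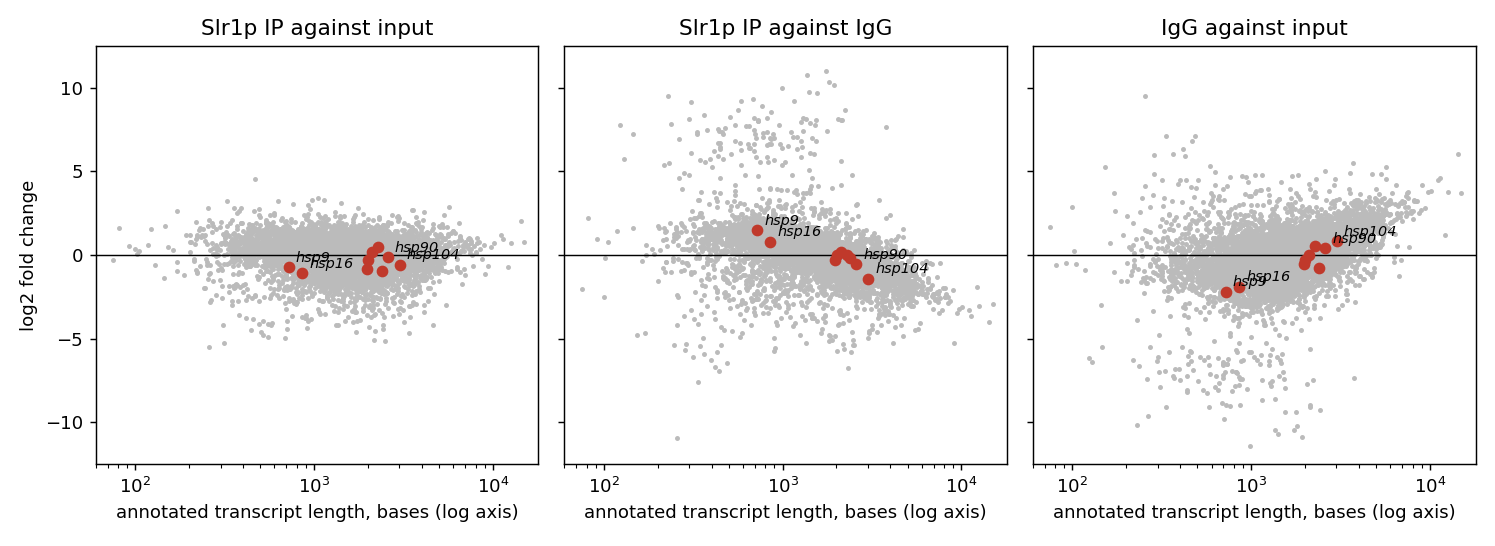
Log2 fold change of every gene with an annotated transcript (grey) and of the 9 members (red) against transcript length in bases (log axis) in the 3 comparisons. Against IgG the grey cloud falls with length. There hsp16 (0.80), hsp90 (-0.55) and hsp104 (-1.41) lie between the quartiles of protein-coding genes in their length class, and hsp9 (1.47) lies just above the upper quartile of 1.42. The 5 members between 1973 and 2385 bases are not labelled.

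Other chaperone genes were set beside the members by lists of their roles, described by counts alone. No trend on length was removed from the list values. Against IgG the medians of length classes ran from 1.08 up to 500 bases to -1.30 over 3000 bases. The shares of all genes called were 35% higher and 34.2% lower against input and 34% higher and 32.3% lower against IgG, with medians of 0.035 and 0.072. Of 7 Hsp90 co-chaperone genes 4 were higher and 1 lower with Slr1p than in input, and 5 were higher and 0 lower than in IgG, with medians of 0.39 and 0.46. The p23 gene wos2 was at 453 and 605 CPM in input, 1246 and 1358 CPM with Slr1p and 827 CPM in IgG. It rose by 1.30 against input (SE 0.18, edgeR adjusted p = 8.98e-06) and by 0.65 against IgG (SE 0.22, adjusted p = 0.0164). The gene aha1, for an activator of the Hsp90 ATPase, was lower than input at -0.90 (SE 0.12).

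Of 10 genes for partners of cytosolic Hsp70, 5 were higher and 3 lower than in input (median 0.32), and 4 higher and 2 lower than in IgG (median 0.20). The 3 lower and the 4 higher are near the shares of all genes. The largest rise was that of dph4, a J-protein gene of diphthamide synthesis, at 1.65 against input and 1.48 against IgG. The largest falls were those of bag102, for a BAG-domain regulator of Hsp70, at -1.24 against input, and of mug184, at -2.48 against IgG.

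Prefoldin and the chaperonin CCT are complexes that take up new polypeptides. Of 6 prefoldin subunit genes 5 were higher than in input (35% of all genes) and 6 higher than in IgG (34%), with 0 lower and medians of 0.67 and 1.04. The gene pfd6 was at 25.4 and 32.2 CPM in input, 90.9 and 80.5 CPM with Slr1p and 36.3 CPM in IgG, log2 fold changes of 1.57 and 1.24. Of 8 CCT subunit genes, 2 were higher than in input and 1 higher than in IgG, with 0 lower and medians of 0.27 and 0.15. Neither the difference between the complexes nor the part of transcript length in the values against IgG was tested. Among them cct5 was at 0.92 against input and cct6 at 0.50 against IgG.

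Of 6 mitochondrial chaperone genes 1 was higher and 2 lower than in input (median -0.049), and 2 higher and 4 lower than in IgG (median -0.59). The 2 lower than input and the 2 higher than IgG are near the shares of all genes. The mitochondrial Hsp70 gene ssc1 was at 2025 and 2136 CPM with Slr1p and at 6765 CPM in IgG (-1.70). Against input it was 0.51. The gene hsp10, for the partner of the mitochondrial chaperonin Hsp60, was at -0.46 against input and 1.19 against IgG.

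Of 9 genes for the heat shock factor and protein turnover, 3 were higher and 2 lower than in input (median 0.048), and 1 higher and 5 lower than in IgG (median -0.47). The 3 higher than input are near the share of all genes. The gene of Hsf1 itself was at 72.9 and 80.2 CPM in input, 76.2 and 82.1 CPM with Slr1p and 162 CPM in IgG. Against input its log2 fold change was 0.048 (SE 0.12, edgeR adjusted p = 0.735), and against IgG it was -1.03. In this list npl4 was lowest against input, at 123 and 113 CPM in input and 30.5 and 28.6 CPM with Slr1p, and ufd1 highest at 0.39, and ubr1 was lowest against IgG at -2.13 and ubc4 highest at 1.49. For orientation slr1 (SPAC1527.03), the mRNA of the precipitated protein, was 0.56 against input and 0.093 against IgG.

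Genes of most similar profile were found by the distance between log2 CPM values over the 5 libraries, each centred on its own mean, among 4691 other genes. The nearest to hsp104 was pfl2 at a distance of 0.22, to hsp90 atf1 (0.11), to ssa1 pgk1 (0.13), to ssa2 pabp (0.17), to sks2 cct2 (0.056) and to mas5 lat1 (0.066). For psi1 it was SPBPB10D8.02c (0.18), for hsp16 SPAC6F6.11c (0.093) and for hsp9 cbm1 (0.17). The nearest other member was always farther, from 0.44 between ssa1 and mas5 to 0.76 between hsp104 and hsp90. Between 44 and 749 genes were nearer to a member than its nearest fellow member. A nearest gene among 4691 is likely to lie closer than a nearest among so few members. These distances therefore do not show whether the members share a profile.

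**Figure D5:**
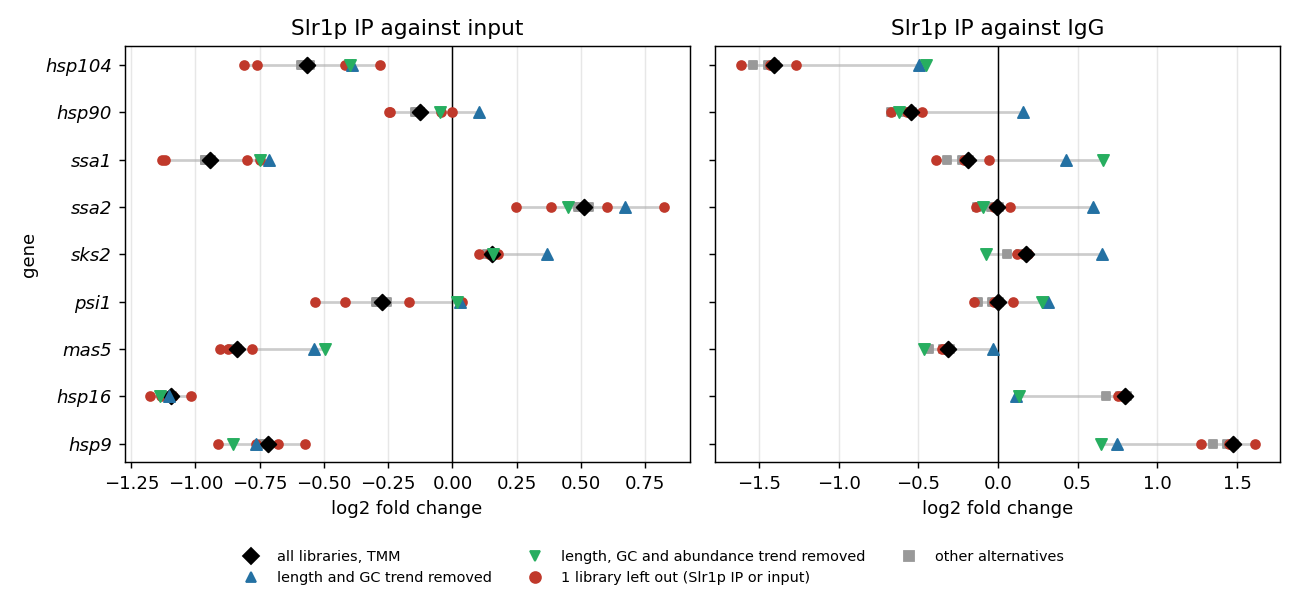
Log2 fold changes of the 9 genes under every alternative, against input (left) and against IgG (right), with the value from all libraries as a black diamond. Against input hsp16, ssa1, mas5, hsp9 and hsp104 stay below 0 throughout, and against IgG the length and GC fit moves hsp9 from 1.47 to 0.75 and hsp104 from -1.41 to -0.50.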

How the data were processed

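Each deposited file held unnormalized counts of reads for 6727 genes in 1 library. The labels' protocols name a directional NEBNext Ultra II kit. The submitters' processing notes list these tools without role or order: STAR 2.6.0c, HTSeq 0.6.1p2, Trim Galore, FastQC 0.11.5 and bcl2fastq 2.20. These sources do not give the build, the annotation, the strand setting or how reads with several matches were counted.

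RefSeq ASM294v3 supplied lengths, GC content and sequences for 6531 genes, including all 9 members, and none for 196. The test was edgeR 4.0.16 (R 4.3.3), quasi-likelihood, scaled by TMM, after its default filter by group had removed 351 genes. All 5 libraries entered with a mean for each group, which left 2 residual degrees of freedom (prior 13.5, common coefficient of variation 0.101). The lone IgG library is taken to vary as the others do. Benjamini-Hochberg adjustment covered every gene tested, and an adjusted p under 0.05 was called. P-values measure the spread between these libraries, estimated largely over all genes rather than for each gene alone. Each SE was derived from the test, as the absolute log2 fold change divided by the square root of its F statistic.

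Alternatives were library totals alone, DESeq2 1.42.0, no filter, trends on length and GC content or also on abundance (natural splines, 5 degrees of freedom, as offsets), each replicate left out, and a replicate block. Fits with 1 replicate left out, and the replicate block, had 1 residual degree of freedom. A fit without IgG was added after seeing the data. Scripts were tested on simulated data. Members and lists were chosen with earlier results of these data known. Named genes were the 9 members, the called gene of each list with the largest change in each direction, the nearest profile among genes of at least 10 CPM, and slr1. Hsf1, and the genes named for their input ratio, were chosen after their values were seen. List symbols ssp1 and ppt1 were left out because the annotation gives those genes another function.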

Additional observations from a re-analysis of the deposited data

How the results depend on the processing

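The counts of genes called stayed within 1.5 times under every alternative run. They ranged from 3394 to 4840 against 4413 for Slr1p and input, and from 3045 to 4790 against 4227 for Slr1p and IgG. The split against IgG was 2166 higher and 2061 lower, 1701 and 2091 with library totals alone, and 1745 and 1379 after removal of the trend on length and GC. Library totals moved the median of all genes against IgG from 0.072 to -0.047. Among the values of members under alternatives, 205 kept direction and side of the threshold, 27 gained a call in the same direction, 10 lost one and 19 changed sign. Of those that changed sign, ssa1 (0.66) and ssa2 (0.59) against IgG also gained a call.

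After removal of that trend the sign changed against input for hsp90 (0.10) and psi1 (0.028), against IgG for hsp90 (0.16), ssa1 (0.43) and ssa2 (0.59), and between IgG and input for hsp90 (-0.054). With abundance added it changed for psi1 against input (0.017), for ssa1 (0.66) and sks2 (-0.073) against IgG, and for sks2 between IgG and input (0.23). Against IgG it changed for psi1 with library totals alone (-0.13) and DESeq2 (-0.036) and for ssa2 with no filter (0.0046). Between IgG and input it changed for sks2 with library totals alone (0.096). With 1 replicate left out, psi1 ranged from -0.53 to 0.036 against input, from -0.15 to 0.097 against IgG and from -0.51 to 0.036 between IgG and input, and ssa2 from -0.14 to 0.079 against IgG. The cause was not tested.

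The replicate block called 4207 genes between Slr1p and input, with the same count of 5 members lower and 0 higher. Deviations of same-numbered libraries correlated at -0.065 over 6376 genes in 2 pairs. This cannot tell whether libraries of the same number share a culture, and the main fit did not pair them. Ratios of replicate 2 to 1, input then Slr1p, were 1.48 and 1.18 for ssa2, 1.48 and 1.20 for psi1 and 1.44 and 1.28 for hsp104. They were 1.29 and 1.27 for ssa1, 1.18 and 1.16 for hsp90 and 1.05 and 1.28 for hsp9. For sks2 they were 1.01 and 1.06, for mas5 0.913 and 1.04, and for hsp16 0.892 and 0.980. Whether pairing bears on these was not tested. The 168 counts of hsp16 in IgG were the fewest of any member and library.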

Other observations

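Among 46 other chaperone and protein turnover genes of the lists, 6 had a ratio of input replicate 2 to replicate 1 above 1.32, the 95th percentile of all genes of at least 10 CPM in input. They were hsp78 (1.51), sti1 (1.47), dph4 (1.38), cdc37 (1.37) and wos2 (1.34), and also epr1, which at 4.86 and 7.28 CPM in input lies below that floor. Of the 9 members 3 were above it. The labels give both input libraries the same growth conditions, and the source of these ratios was not tested.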
